A study of Caenorhabditis elegans with 8 samples.

Results

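The hedgehog-related and patched-related genes of C. elegans were followed in whole animals of 8 strains. The members were the genes with a wrt (warthog), grd (groundhog), grl (ground-like), ptr (patched-related) or ptc (patched) symbol and a number, plus hog-1 and qua-1, that had at least 10 counts in 2 or more libraries. Of 85 genes with such a symbol, 67 met this minimum, among 46778 genes in the annotation and 16153 genes that passed the same minimum. They comprised 9 of 10 wrt, 13 of 16 grd, 18 of 31 grl, 23 of 24 ptr, both ptc genes, hog-1 and qua-1. At the edge of the rule, grl-17 and grl-26 reached 10 counts in 2 libraries, and grd-7, grl-6 and grl-30 did so in 1 library and were left out.

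The genes encode a secreted and a membrane side of one system. The wrt, grd, grl, hog-1 and qua-1 products are secreted proteins related to Hedgehog, and part of them carry the self-processing Hog domain. The worm has no true Hedgehog and no Smoothened. PTC and PTR proteins are many-pass membrane proteins with a sterol-sensing domain, related to the fly receptor Patched. Many of the genes are transcribed in epidermal cells in pulses that accompany each larval molt, and loss of several of them disturbs molting, growth or the apical extracellular matrix.

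The animals were synchronised and collected at the last larval stage, L4, and each strain gave 2 RNA-seq libraries. Single alleles were studied in mbl-1(tm1563), in mec-7(u278) and in the mec-3 strains u184, syb8382 and unk206, beside WT. A pair of strains joined alleles, mec-7(u278); mbl-1(tm1563), called the mec-7 double mutant below, and mbl-1(tm1563); mec-3(unk206), called the mec-3 double mutant. mbl-1 encodes the muscleblind splicing regulator and tm1563 served as its loss of function, mec-7 encodes a β-tubulin of the touch receptor neurons, and mec-3 encodes the LIM homeodomain factor that specifies those neurons. The allele u184 served as a mec-3 null, syb8382 lacks the mec-3a isoform, and unk206 makes only mec-3a. All 8 strains carried a red reporter driven by the mec-17 promoter in touch receptor neurons, uIs134 in the u184 and syb8382 strains and uIs115 in the other 6, so allele and reporter insertion cannot be told apart in comparisons of u184 or syb8382 with unk206. The 2 libraries of a strain belong to a single deposited sample and are biological replicates by the study's methods, so the p-values below rest on the spread within such pairs.

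Library totals were close, at 22296336 to 23180583 counts on genes. Levels are CPM, counts scaled to a common library size over the 16 libraries with TMM factors. In the 8 libraries without a mec-3 allele, 50.8% to 51.3% of stranded counts lay on the second strand, against 97.7% to 98.4% in the 8 with one. The wild type and the mec-3 strains thus differ in library type as well as genotype. Their levels were not tested against each other, and only the mbl-1 effects in the wild type and in mec-3(unk206) were compared. mec-3 itself lay at 0.135 and 0.132 CPM in mec-3(u184) and between 0.494 and 3.80 CPM in the other libraries. mbl-1 lay at 49.5 and 58.4 CPM in mbl-1(tm1563) and at 57.7 and 70.3 CPM in the wild type. Total counts on the gene thus did not separate these overlapping pairs. They were lower without overlap in each double mutant. mbl-1 lay at 31.2 and 24.03 CPM in the mec-3 double mutant, against 46.2 and 38.9 in mec-3(unk206). It lay at 27.3 and 32.03 CPM in the mec-7 double mutant, against 36.6 and 60.01 in mec-7(u278). mec-7 lay at 46.9 and 98.5 CPM in the mec-7(u278) strain, against 214 and 150.1 in the wild type. The first library of the mec-7 double mutant stood apart for the genes described here. The members' spread and median changes that rest on it are given with and without it. In whole animals, fewer cells of a type and less RNA per cell cannot be told apart.

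The members lay on every chromosome, with 22 of 67 on V, 11 each on II and X, 10 on IV, 9 on I and 4 on III (build WBcel235). Several were direct neighbours. wrt-1 (II, 7530996 to 7533246) and wrt-10 (II, 7533262 to 7534563) lie on opposite strands with 15 bases between them. grd-13, grd-3 and grd-10 form a run on one strand of IV (3438312 to 3441841) with gaps of 147 and 601 bases, and grd-14 (X, 8500021 to 8501037) directly precedes grd-4 (X, 8501222 to 8502288). In 18 members, 18 to 329 exonic bases are shared with a gene on the opposite strand. Among them are hog-1 with 30, wrt-2 with 43, grl-2 with 61 and ptr-10 with 92. Counts of these genes are less certain in all 16 libraries, because the unstranded counts were used throughout.

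Per kilobase of exon, the highest mean levels over the 16 libraries were those of grd-5 (320 CPM per kb) and grl-16 (294 CPM per kb). The highest wrt and ptr genes on this scale were wrt-6 (91.9 CPM per kb) and ptr-2 (31.4 CPM per kb), beside 43.5 for ptc-1, 34.9 for qua-1, 28.2 for ptc-3 and 6.64 for hog-1. At the low end, grl-17, grd-16 and ptr-19 had mean levels of 0.200, 0.242 and 0.267 CPM per kb. Of the 67 members, 51 had at least 10 counts in all 16 libraries.

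qua-1, the quahog gene required for normal molting, varied the most among the 8 genes followed in every library. Its level was 503 and 309 CPM in WT animals, 268 and 402 in mbl-1(tm1563), 54.3 and 210.0 with mec-7(u278) alone, and 8.02 and 155 in the mec-7 double mutant. It was 16.7 and 12.8 CPM in mec-3(unk206), 27.8 and 44.5 in the mec-3 double mutant, 56.3 and 55.0 in mec-3(u184), and 21.1 and 10.3 in mec-3(syb8382). The wild-type and mbl-1(tm1563) libraries were the 4 highest, and the lowest was the first library of the mec-7 double mutant, 62.7 times below the first wild-type library.

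Among the secreted families, wrt-6 and grl-16 were ordered in a like manner. wrt-6 lay at 582 and 430.5 CPM in WT animals, 306 and 249 in mbl-1(tm1563), 157 and 302 with mec-7(u278) alone, and 13.1 and 177 in the mec-7 double mutant. In the mec-3 strains wrt-6 lay at 56.7 and 45.3 CPM in mec-3(unk206), 72.9 and 88.3 with mbl-1(tm1563) added, 152 and 155 in mec-3(u184), and 68.4 and 41.2 in mec-3(syb8382). The mec-3(u184) pair was the highest of the mec-3 strains and overlapped none of them.
grl-16 lay at 1424 and 953 CPM in WT animals, 1232 and 911 in mbl-1(tm1563), 576 and 686 with mec-7(u278) alone, and 45.2 and 486 in the mec-7 double mutant. Its mec-3(u184) libraries (410.0 and 333 CPM) again stood above mec-3(unk206) (172 and 126), the mec-3 double mutant (163 and 139) and mec-3(syb8382) (139 and 99.5). The mec-3(unk206) pair overlapped both of the last 2, which did not overlap each other (139.1 against 139.0 at the nearest).

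grd-5 and hog-1 varied over a smaller or noisier range. grd-5 lay between 82.5 and 387 CPM, with its highest value in the first mec-7(u278) library and its lowest in the first mec-3(syb8382) library. hog-1 lay at 17.8 and 8.83 CPM in WT animals and 16.6 and 7.96 with mec-7(u278), so these pairs overlapped. It lay at 10.8 and 9.97 CPM in mbl-1(tm1563), 4.51 and 3.40 in mec-3(u184) and 1.26 to 2.72 in the remaining mec-3 strains. Its lowest value was 1.15 CPM, in the first library of the mec-7 double mutant.

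On the membrane side the 2 Patched genes did not follow one order. ptc-3, needed for growth and osmotic balance, lay at 370.2 and 240.4 CPM in WT animals, 217 and 307 in mbl-1(tm1563), 58.6 and 200.4 with mec-7(u278) alone, and 35.4 and 112 in the mec-7 double mutant. In the mec-3 strains it lay at 46.0 and 36.9 CPM in mec-3(unk206), 48.5 and 53.0 with mbl-1(tm1563) added, 92.4 and 91.1 in mec-3(u184), and 55.0 and 47.1 in mec-3(syb8382).
ptc-1, needed for cytokinesis in the germline, lay at 135 and 197 CPM in WT animals, 176 and 172 in mbl-1(tm1563), 149 and 167 with mec-7(u278) alone, and 257 and 273 in the mec-7 double mutant. Its highest libraries were those of the mec-3 double mutant (307 and 355 CPM) and mec-3(syb8382) (276 and 282), both above mec-3(unk206) (208 and 181) and mec-3(u184) (206 and 193). ptr-2 was likewise higher in these strains, with 116 and 146 CPM in the mec-3 double mutant, 109.6 and 103.6 in mec-3(syb8382), 70.1 and 63.4 in mec-3(unk206), and 74.0 and 69.5 in mec-3(u184). Over 16 libraries ptc-1 and ptr-2 varied 2.62-fold and 2.31-fold from lowest to highest, against 10.5-fold for ptc-3.

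**Figure D1:**
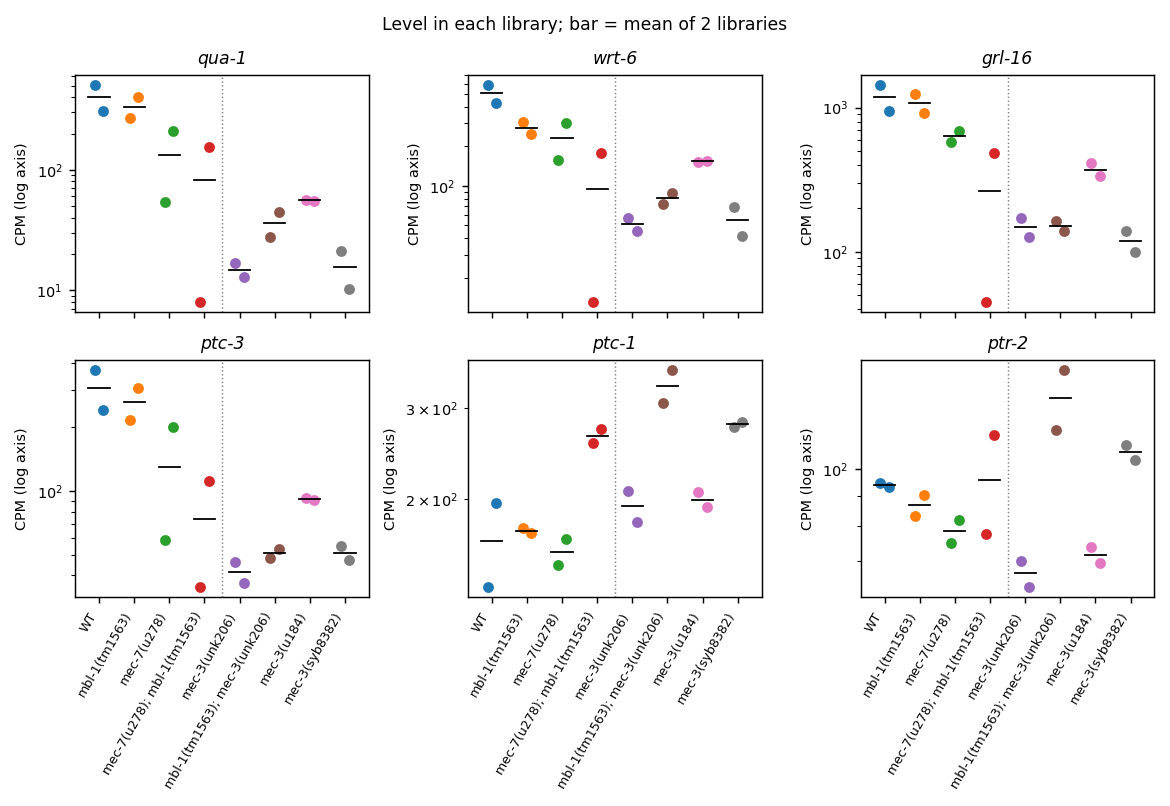
CPM of 6 genes in each library (log axis), by strain, with each point 1 library and each bar the mean of 2; strains right of the dotted line carry a mec-3 allele. qua-1, wrt-6, grl-16 and ptc-3 are lowest in the first library of the mec-7 double mutant, whereas ptc-1 and ptr-2 are highest in the mec-3 double mutant.

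The median member varied more over libraries than the median gene. Over the 8 libraries without a mec-3 allele, the median member varied 15.4-fold between its lowest and its highest library, against 3.85-fold for all genes that passed the count minimum, and 43 of 67 members (64.2%) varied more than 10-fold, against 29.2% of all genes. The first library of the mec-7 double mutant held the lowest value of the 8 for 51 of 67 members (76.1%), against 33.8% of all genes. Without this library the median member varied 3.44-fold, against 2.71-fold for all genes, and 6 members (8.96%) varied more than 10-fold, against 21.5% of all genes. Among the mec-3 strains the medians were 3.35-fold and 2.02-fold, and 1 member (1.49%) varied more than 10-fold, against 4.94% of all genes. The highest of these 8 libraries was the first mec-3(u184) library for 34 members (50.7%, against 15.7% of all genes). It was the second mec-3(u184) library for 19 (28.4%, against 16.3%).

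**Figure D2:**
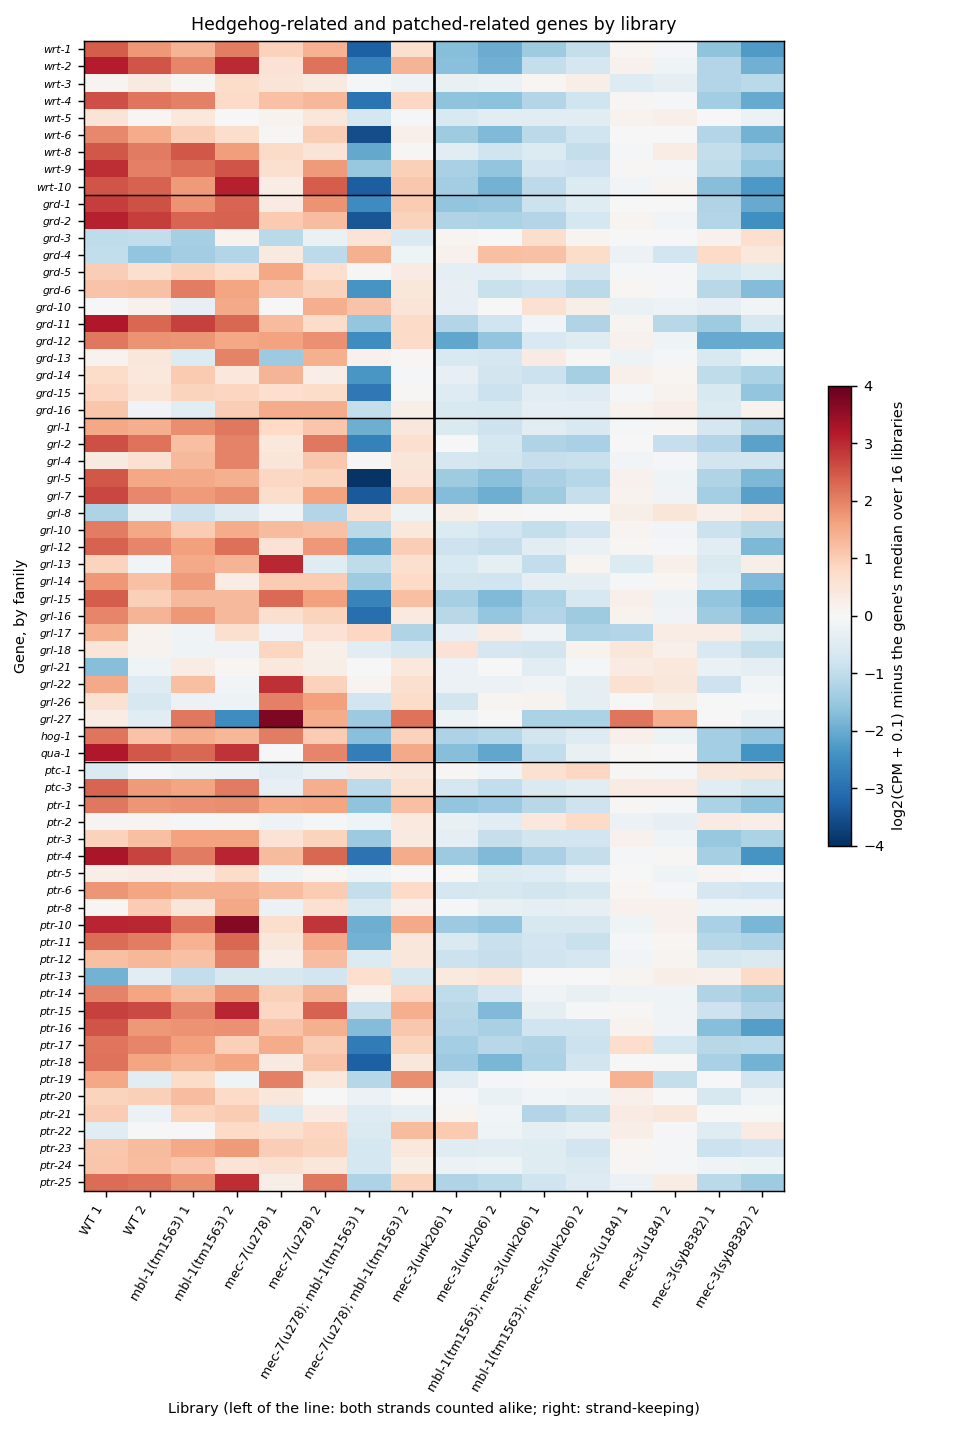
log2(CPM + 0.1) of the 67 members in 16 libraries, each gene centred on its own median and grouped by family; libraries right of the vertical line carry a mec-3 allele and keep strand. The blue column left of the line is the first mec-7 double mutant library, which is lowest of its 8 for 51 of 67 genes, and grd-3, grd-4, grl-8, ptc-1 and ptr-13 are among the few that are not low there.

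How far the 2 libraries of a strain differed for these genes, against all genes, depended on the strain. In the mec-7 double mutant, 58 of 67 members were higher in the second library, by a median log2 difference of 2.13, and 48 (71.6%) differed by more than 1 on the log2 scale, against a median of 0.026 and 24.7% over all genes. Among examples taken after their values were seen, wrt-10 lay at 2.67 and 57.3 CPM in this pair, ptr-4 at 4.34 and 96.5 and grl-5 at 3.04 and 69.7. The direction changed from strain to strain. In the second wild-type library 49 of 67 members were lower (median -0.35, against 0.11 for all genes). In the second mbl-1(tm1563) library 44 of 67 were higher (median 0.17, against -0.12 for all genes). Members apart by more than 1 were 16.4% in the wild type and 20.9% in mbl-1(tm1563), against 15.8% and 26.3% of all genes. In mec-7(u278) they were 34.3%, against 30.3% of all genes. The 2 mec-3(u184) libraries were the closest pair by median absolute difference (0.17), with a median of -0.08. In this pair 4 members (5.97%) were apart by more than 1, against 2.82% of all genes.

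**Figure D3:**
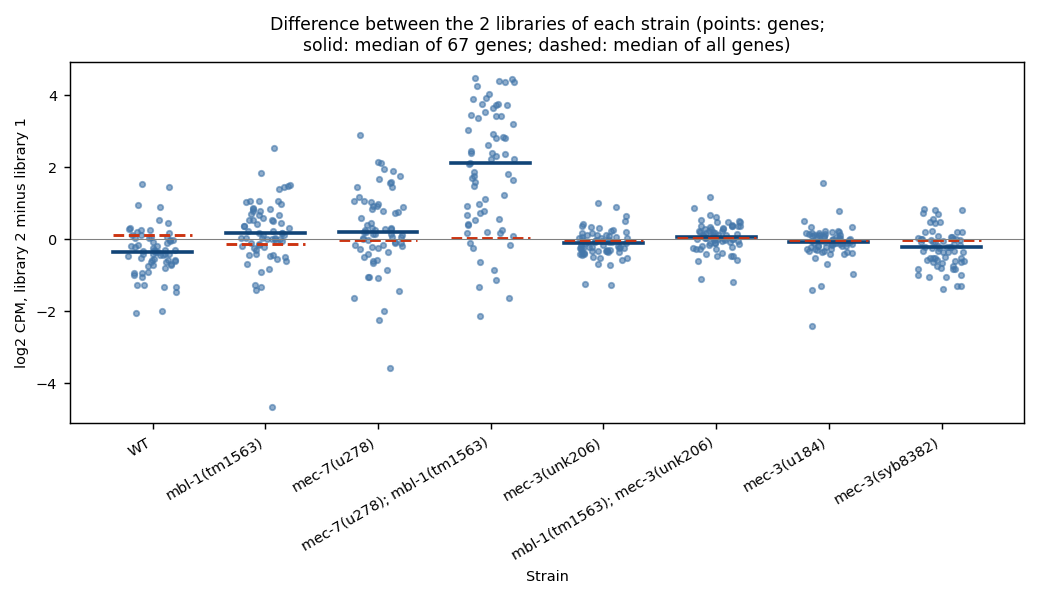
log2 CPM of library 2 minus library 1 in each strain, with 1 point per member, the member median as a solid line and the median of all genes as a dashed line. The members of the mec-7 double mutant centre on 2.13 whereas all genes centre on 0.026, and the mec-3(u184) members have the smallest median absolute difference (0.17).

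Levels of molting genes differed between the same libraries. The list of 28 molting regulators and effectors, which holds no member, summed to 404.5 and 2183 CPM in the 2 libraries of the mec-7 double mutant, 5974 and 4963 in the wild type, 3483 and 6824 in mbl-1(tm1563), and 1333 and 4460 in mec-7(u278). In the mec-3 strains it summed to 1141 and 1118 CPM in mec-3(u184) and to 460.4 to 735 in the other 6 libraries. Of its 28 genes, 24 were higher in the second mec-7 double mutant library (median log2 difference 1.93), and no gene of the list was at 0 in any library. The 10 germline genes summed to between 101 CPM, in the second mbl-1(tm1563) library, and 2812 CPM, in the second mec-3 double mutant library, and the 13 epidermal genes to between 2750.5 and 7636 CPM. All 13 epidermal markers had counts in some library, with nhr-73 alone at 0 in any. Whether these lists have a part in the differences below was not tested.

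Loss of mbl-1 was compared first in the wild-type background. No member passed an adjusted p under 0.05 by edgeR's quasi-likelihood test, nor did any of 14493 genes (0%). At an unadjusted p under 0.05, 2 of 64 tested members were higher and 2 lower, against 0.448% and 0.662% of all genes, and DESeq2 called no member and 20 genes. The median log2 fold change of the tested members was -0.16, against -0.03 for all genes. It was 0.20 without the first wild-type library and 0.10 without the first mbl-1(tm1563) library, so its sign rested on those libraries.

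The members at the ends of this comparison whose groups did not overlap are given as values that did not pass. grl-4 lay at 146 and 232 CPM in mbl-1(tm1563) against 75.0 and 90.0 in the wild type (log2 fold change 1.23, SE 0.32), and grl-13 at 0.696 and 0.616 against 0.417 and 0.156 CPM (1.17, SE 0.84). wrt-4 lay at 384 and 161 CPM against 566 and 414 (-0.87, SE 0.47), and wrt-6 differed by -0.86 (SE 0.26). The adjusted p of all 4 was 0.9999 by edgeR.

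In the mec-7(u278) background the tested members lay to one side without passing the test. Of 65 tested, 59 had a lower mean level with mbl-1(tm1563), with a median log2 fold change of -1.13 against -0.05 for all 15221 genes. None passed an adjusted p under 0.05 by edgeR, as for all genes (0%), and 1 member was lower and none higher at an unadjusted p under 0.05, against 1.05% and 2.63% of all genes. DESeq2 also called no member, and 15 genes. Without the first library of the mec-7 double mutant the member median was -0.37, against -0.07 for all genes. Without its second library the member median was -2.83, against -0.08 for all genes. That last member median rests on the library that stood apart.

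The lowest values with groups that did not overlap were those of grd-16 and grl-26, both close to the counting limit. grd-16 had 0.0742 and 0.293 CPM against 0.846 and 0.836 (log2 fold change -2.18, SE 0.81), and grl-26 had 0.0371 and 0.293 against 0.846 and 0.639 (-2.17, SE 0.96). With 1 library left out at a time, these changes ran from -3.42 to -1.50 for grd-16 and from -4.15 to -1.32 for grl-26. The highest values with groups that did not overlap were those of ptc-1 and ptr-20. ptc-1 lay at 257 and 273 against 149 and 167 CPM (0.75, SE 0.31), and ptr-20 was lower, at -0.37 (SE 0.42). All 4 had an adjusted p of 0.66 to 0.70 by edgeR. All 28 molting genes also had a lower mean (median -1.10) and all 10 germline genes a higher mean (median 1.02), with no gene of either list called. Both list medians include the first library of the mec-7 double mutant.

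In the mec-3(unk206) background loss of mbl-1 moved members in both directions. Of 61 tested members, 15 rose and 6 fell at an adjusted p under 0.05 by edgeR, against 14.4% and 22% of all 15042 genes. The median log2 fold change was 0.13, against -0.01 for all genes. By family, 4 of 9 wrt genes rose, 3 of 10 grd genes rose and 1 fell, 1 of 15 grl genes rose and 2 fell, and 5 of 23 ptr genes rose and 3 fell, with qua-1 and ptc-1 added to the rises.

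qua-1 rose by 1.15 on the log2 scale (SE 0.20, adjusted p = 0.000258), from 16.7 and 12.8 to 27.8 and 44.5 CPM. ptr-15 rose by 1.13 (SE 0.32), at 2.06 and 2.68 against 1.23 and 0.735 CPM. ptr-15 shares 30 exonic bases with mec-1 on the other strand. wrt-2, a warthog gene, rose by 0.84 (SE 0.21), at 7.64 and 9.27 against 4.68 and 3.91 CPM, and wrt-10 by 0.72 (SE 0.21), at 13.1 and 18.7 against 10.3 and 7.23. ptr-2 rose by 0.84 (SE 0.15, adjusted p = 0.000362), grd-1 by 0.76, ptr-10 by 0.78 and grd-13 by 0.72. ptc-1 rose by 0.63 (SE 0.15) and wrt-6 by 0.52 (SE 0.16), each with groups that did not overlap. The neighbours of grd-13, grd-3 and grd-10, had 204 and 135 against 135 and 127 CPM and 45.9 and 35.2 against 23.5 and 29.3 CPM, and grd-10 passed the test (0.48, adjusted p = 0.0359), both given after their values were seen. grd-10 lost its call without the first library of either strain (adjusted p = 0.25 without that of mec-3(unk206) and 0.37 without that of the double mutant).

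The 6 falls included 2 genes at well under their control level. grl-27 fell by 1.39 (SE 0.31, adjusted p = 0.00178), from 1.89 and 2.17 to 0.849 and 0.854 CPM, and ptr-21 fell by 1.20 (SE 0.15, adjusted p = 1.2e-05), from 65.2 and 56.4 to 26.9 and 31.3 CPM. The pairs of both genes were far apart. grl-2 fell by 1.16 (SE 0.38), at 0.606 and 0.569 against 1.52 and 0.890 CPM, grd-14 by 0.70 (SE 0.17), ptr-13 by 0.58 (SE 0.15) and ptr-24 by 0.44 (SE 0.14).

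Without the second library of the mec-3 double mutant fewer members were called, and wrt-10, grd-1, ptr-15 and wrt-6 lost their calls. Their log2 fold changes there were 0.46, 0.56, 0.94 and 0.39. ptr-10 lost its call whichever of the 4 libraries was left out (adjusted p = 0.10 to 0.16), grl-2 without 3 of them (0.054 to 0.30), ptr-24 likewise (0.057 to 0.16) and grd-14 without 2 (0.061 and 0.069). Without the second mec-3(unk206) library wrt-10, ptr-15 and wrt-6 had an adjusted p of 0.095, 0.0998 and 0.12. qua-1, wrt-2, ptr-2, ptc-1, grd-13, grl-27, ptr-21 and ptr-13 passed without each library.

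Among the fixed lists, 6 of 27 tested molting genes rose and 1 fell, with noah-1 (1.16), mlt-11 (1.03), fbn-1 (1.02) and noah-2 (0.94), which encode parts of the apical matrix or act in molting, at the top. The list of 15 other genes of the hedgehog route or with a sterol-sensing domain also held mom-1, the Porcupine acyltransferase homolog. That gene, which belongs to neither class, rose by 1.14. In the same list the Niemann-Pick C1 homologs ncr-1 and ncr-2 fell by 1.02 and 1.06 and scp-1 by 0.66. All 10 intestinal genes fell (median -1.03), and 4 of 10 germline genes rose and 2 fell. Their part in the members' differences was not tested.

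The effect of mbl-1(tm1563) in each mutant background was then set against that in the wild-type background as an interaction. For mec-3(unk206) this comparison spans the 2 library types, so background and library type cannot be told apart in it. No member passed an adjusted p under 0.05 by edgeR for either background. For mec-7(u278), 0% of 15602 genes passed, and at an unadjusted p under 0.05 no member was higher and 2 were lower, against 0.949% and 0.718% of genes, with none called by DESeq2. The median difference over 67 members was -0.88 on the log2 scale, -0.25 without the first and -2.72 without the second mec-7 double mutant library. For mec-3(unk206), 0.0192% of 15661 genes passed, and at an unadjusted p under 0.05, 8 of 65 members were higher and 4 lower, against 4.07% and 5.07% of genes. DESeq2 called 5 of 65 members here, 3 higher and 2 lower, against 488 of all 15661 genes. The median difference over the members was 0.11, and -0.033 to 0.48 with 1 library left out. A difference from the wild-type effect was thus called for no member by edgeR on all 8 libraries, and for 5 by DESeq2.

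The strain mec-7(u278) was compared with the wild type. Of 64 tested members, 46 had a lower mean in mec-7(u278), with a median log2 fold change of -0.50 against 0.00 for all genes. None passed an adjusted p under 0.05 by edgeR, against 0.0204% of 14710 genes, and 2 were higher and 11 lower at an unadjusted p under 0.05, against 4.45% and 2.60% of all genes. DESeq2 called 3 members, 1 higher and 2 lower, against 92 of all 14710 genes, 55 of them higher. Of the tested wrt genes, 8 of 9 had a lower mean, as did 20 of 23 ptr genes and 6 of 12 grd genes.

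grd-2 lay at 18.6 and 20.8 CPM with mec-7(u278), against 74.8 and 61.4 without it (log2 fold change -1.79, SE 0.29, edgeR adjusted p = 0.56). Its pairs were far apart, and it passed by DESeq2 (adjusted p = 0.00157), with no filter on low counts (0.00386) and without the second wild-type library (0.0349). grd-11 lay at 1.13 and 0.737 against 4.53 and 2.39 CPM (-1.89, SE 0.63). At the other end grl-27 lay at 30.02 and 6.34 against 2.71 and 1.61 CPM (3.06, SE 0.81), with the first mec-7(u278) library far above all others, and grl-26 at 0.846 and 0.639 against 0.261 and 0.052 (2.20, SE 0.86). The adjusted p of these 3 was 0.56 by edgeR. grl-27 passed by DESeq2 (0.00988) and with no filter (0.000677). In the molting list 22 of 28 genes had a lower mean (median -0.61) and none was called, and all 10 germline genes had a higher mean (median 0.65).

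The 3 mec-3 alleles were compared in pairs, and mec-3(u184) stood above mec-3(unk206) for most members. Of 62 tested, 40 rose and 1 fell at an adjusted p under 0.05 by edgeR, against 14.9% and 12.4% of all 14977 genes, with a median log2 fold change of 0.73 against 0.00 for all genes. All families took part, with 8 of 9 wrt, 6 of 11 grd, 9 of 15 grl and 14 of 23 ptr genes higher, together with qua-1, hog-1 and ptc-3. The count ran from 31 to 44 without each library in turn.

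qua-1 rose by 1.88 (SE 0.14, adjusted p = 5.1e-05), with 56.3 and 55.0 against 16.7 and 12.8 CPM. wrt-1 rose by 1.81 (SE 0.15), at 24.3 and 22.2 against 7.14 and 5.84 CPM, and its neighbour wrt-10 by 1.61 (SE 0.17), at 25.4 and 29.0 against 10.3 and 7.23 CPM. wrt-2 rose by 1.78 (SE 0.17). All 4 had pairs more than 2-fold apart. grl-7, which encodes a ground-like protein of the apical matrix, rose by 1.81 (SE 0.13), at 65.7 and 54.2 against 17.98 and 15.4 CPM. grl-27 rose by 1.96 (SE 0.26), at 10.02 and 6.18 against 1.89 and 2.17 CPM, and ptr-18 by 1.61 (SE 0.14), at 42.1 and 41.8 against 15.1 and 11.9 CPM. ptr-18 helps starved young larvae to stay arrested.

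grd-12 had the largest fitted change (2.40, SE 0.52) on few reads. It had 17 and 13 counts in mec-3(u184) against 2 and 4 in mec-3(unk206), a ratio of 5.01 with an exact 95% interval of 2.05 to 14.7 that covers counting error only, and its call was lost by DESeq2 (adjusted p = 0.074) and without the first library of either strain (0.063 and 0.051). It shares exonic bases with xbx-1 on its own strand and with another gene on the opposite strand. hog-1 rose by 1.21 (SE 0.24), ptc-3 by 1.11 (SE 0.12), grl-16 by 1.29 (SE 0.16) and wrt-6 by 1.56 (SE 0.12), each with groups that did not overlap. ptc-1 and ptr-2 differed by 0.01 (SE 0.11) and 0.07 (SE 0.10), with overlapping groups and adjusted p = 0.96 and 0.62 by edgeR, and grd-5 by 0.28 (SE 0.10, adjusted p = 0.058). grd-5 passed without either mec-3(unk206) library (adjusted p = 0.015 and 0.026).

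grd-4 alone fell, by 1.44 (SE 0.44, adjusted p = 0.038), at 0.677 and 0.441 against 0.944 and 2.01 CPM. Its call was lost without the second mec-3(unk206) library (adjusted p = 0.26), without the second mec-3(u184) library (0.086), by DESeq2 (0.097) and with no filter (0.075). grd-14, named here after its values were seen because it neighbours grd-4, rose by 0.63 (SE 0.13).

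Of the molting list, 21 of 28 genes rose and none fell (median 1.07), led by mlt-10 (2.26), nas-6 (2.06), noah-1 (2.06) and noah-2 (1.88). Of the list of other hedgehog-route genes that also holds mom-1, 5 of 15 rose and none fell. Among these were hhat-1, a homolog of the Hedgehog acyltransferase, at 1.49, and daf-6, a patched-related gene of glial channels, at 1.35. The Dispatched homolog che-14 rose by 0.94 and the megalin homolog lrp-1, which the molting list holds too, by 0.86. Of 12 tested epidermal genes, 6 rose and 3 fell, 6 of 7 body wall muscle genes rose, and 3 of 10 germline genes fell. Their part was not tested.

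mec-3(syb8382) and mec-3(unk206) were closer. Of 61 tested members, 2 rose and 4 fell at an adjusted p under 0.05 by edgeR, against 5.49% and 8.41% of all 14775 genes, with a median log2 fold change of -0.13 against -0.02 for all genes. ptr-2 rose by 0.63 (SE 0.12, adjusted p = 0.00735), at 109.6 and 103.6 against 70.1 and 63.4 CPM, and ptc-1 by 0.48 (SE 0.13, adjusted p = 0.0321), at 276 and 282 against 208 and 181 CPM. grd-14 fell by 0.64 (SE 0.15), at 56.6 and 47.7 against 89.8 and 68.1 CPM. grd-6 fell by 0.84 (SE 0.23), at 18.6 and 11.98 against 31.8 and 21.4 CPM, ptr-16 by 0.77 (SE 0.23) and wrt-3 by 0.95 (SE 0.27). The 6 were named under a rule that required groups apart.

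These calls leaned on single libraries. Without the first mec-3(syb8382) library the member median was -0.34, against -0.05 for all genes. Without the second mec-3(syb8382) library ptc-1, grd-6, ptr-16, grd-14 and wrt-3 lost their calls. Their log2 fold changes there were 0.46, -0.56, -0.53, -0.53 and -0.998. wrt-3 lost its call whichever library was left out, and ptr-16, grd-6 and grd-14 also without the first mec-3(unk206) library. ptr-16 lost its call without the second mec-3(unk206) library too. ptc-1 lost its call also without the first mec-3(syb8382) or the second mec-3(unk206) library. ptr-2 passed without each. Of the molting list, nekl-2 rose by 0.79 and mlt-7 fell by 0.49 among 27 tested genes, and 3 of 10 germline genes rose and none fell.

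mec-3(syb8382) and mec-3(u184) carry the same reporter insertion, and most members were lower in mec-3(syb8382). Of 62 tested, 45 fell and 4 rose at an adjusted p under 0.05 by edgeR, against 22.7% and 23.3% of all 14827 genes, with a median log2 fold change of -1.15 against -0.04 for all genes. The falls took in 8 of 9 wrt, 7 of 11 grd, 11 of 15 grl and 16 of 23 ptr genes, qua-1, hog-1 and ptc-3. The 3 comparisons of mec-3 alleles share libraries, as do those that use the wild type or mec-7(u278), so they are not independent. The count of calls ran from 40 to 49 without each library in turn.

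qua-1 fell by 1.83 (SE 0.27, adjusted p = 0.00303), at 21.1 and 10.3 against 56.3 and 55.0 CPM. wrt-10 fell by 1.99 (SE 0.19), at 8.24 and 5.43 against 25.4 and 29.0 CPM, and wrt-1 by 1.92 (SE 0.19), at 7.49 and 4.76 against 24.3 and 22.2 CPM. All 3 pairs were apart by more than 2-fold between their nearest libraries. ptr-16 fell by 1.98 (SE 0.20), at 4.05 and 2.83 against 14.9 and 12.3 CPM, and ptr-4, which takes part in forming the apical matrix, by 1.77 (SE 0.28), at 13.6 and 6.60 against 33.2 and 35.7 CPM. grl-27 fell by 1.98 (SE 0.28) and grl-15 by 1.86 (SE 0.22). hog-1 fell by 1.54 (SE 0.25), ptc-3 by 0.85 (SE 0.08), wrt-6 by 1.49 (SE 0.21), grl-16 by 1.64 (SE 0.17) and grd-5 by 0.51 (SE 0.08), and no pair of these overlapped.
grd-12 had the largest fitted fall (2.84, SE 0.49), on 2 and 2 counts against 17 and 13, a ratio of 0.133 with an exact 95% interval of 0.0339 to 0.376.

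The 4 members that rose were ptr-2 by 0.57 (SE 0.06, adjusted p = 0.0014), ptc-1 by 0.48 (SE 0.07, adjusted p = 0.00234), grd-3 by 0.46 (SE 0.15) and grd-4 by 1.20 (SE 0.34). ptc-1 and ptr-2 passed without each library in turn. grd-3 lay at 143 and 199 against 125 and 124 CPM and lost its call without either mec-3(u184) library (adjusted p = 0.12 for both). grd-4 lay at 1.45 and 1.12 against 0.677 and 0.441 CPM and lost its call without the first (0.063) or second (0.17) mec-3(u184) library or the first mec-3(syb8382) library (0.13). Of the molting list, 20 of 28 genes fell and 1, nhr-23, rose (median -1.01), with nas-6 (-3.68), mlt-10 (-2.31) and mlt-8 (-1.82) at the low end. Of the germline list 9 of 10 genes rose and none fell (median 0.57). In the hedgehog-route list that also holds mom-1, 7 of 15 genes fell and 1 rose. Their part was not tested.

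**Figure D4:**
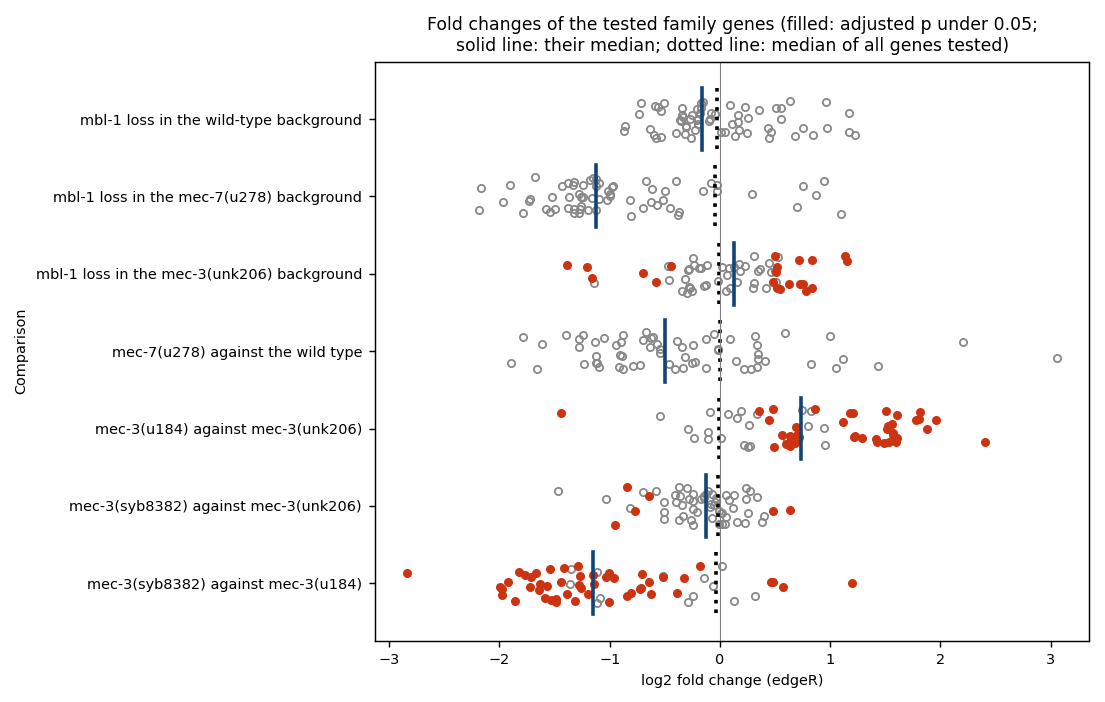
log2 fold change of each tested member in the 7 comparisons, filled where the edgeR adjusted p was under 0.05, with the member median as a solid line and the median of all genes as a dotted line. Filled points lie to the right for mec-3(u184) against mec-3(unk206) (40 of 41) and to the left for mec-3(syb8382) against mec-3(u184) (45 of 49), while the first 2 comparisons and that of mec-7(u278) have none.

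**Figure D5:**
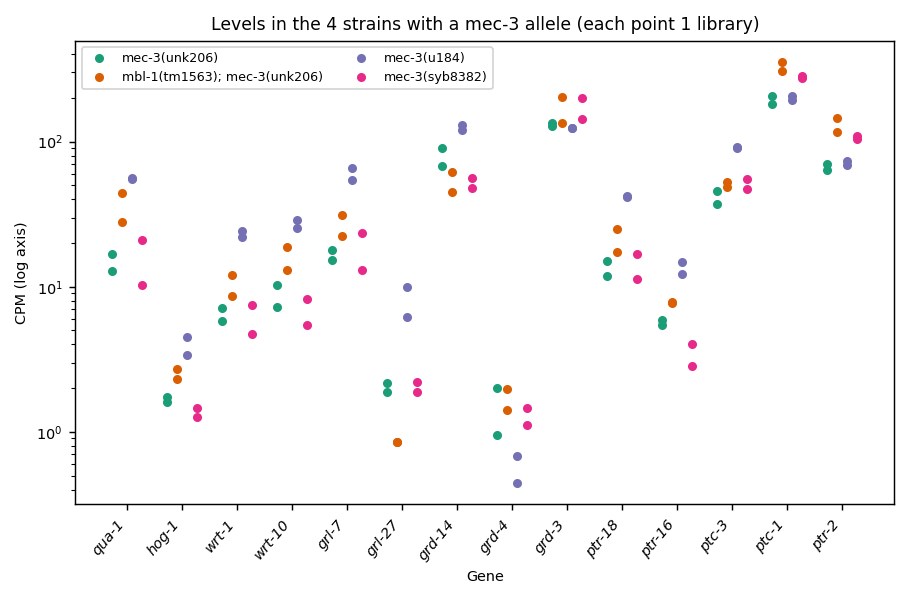
CPM of 14 members in the 8 libraries of the strains with a mec-3 allele (log axis), each point 1 library. The mec-3(u184) points are the highest for qua-1, hog-1, wrt-1, wrt-10, grl-7, grl-27, grd-14, ptr-18, ptr-16 and ptc-3, and not for grd-4, grd-3, ptc-1 and ptr-2.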

How the data were processed

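RNA from whole L4 animals was sequenced by the study in 8 strains, 2 libraries each. The authors deposited raw counts per gene from STAR (2.7.10 and WBcel235 in the submitters' processing notes), as 1 unstranded and 2 stranded columns. Unmapped reads were 1.09% to 2.86% of reads, multimapped 2.47% to 4.24%, ambiguous 1.53% to 1.91% and outside genes 0.230% to 0.505%, and these stayed out of totals and tests. The unstranded counts were used throughout. Each pair of strains was fitted in edgeR 4.0.16 (R 4.3.3) with TMM factors, filterByExpr and quasi-likelihood tests, adjusted by Benjamini-Hochberg over all genes tested. Interactions were fitted on 8 libraries. Alternatives were DESeq2 1.42.0, RLE factors, no filter, larger fits, a block, the stranded column and leaving out libraries, the last chosen after seeing the data for the interactions. Scripts were tested on simulated data. A chi-square over genes exceeded sampling noise for every pair of libraries.

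Members and lists were chosen with earlier results of these data known. The named genes are the 8 largest rises and falls that passed with groups apart, or the 2 highest and 2 lowest where none passed, plus 8 genes followed in every library. Groups apart in a gene named for its rise or fall follow from this choice and are no further support for its change.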

Additional observations from a re-analysis of the deposited data

How the results depend on the processing

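Counts of called members changed by over 1.5 times in few settings. For mec-7(u278) against the wild type, DESeq2 called 3 members and 92 genes and the fit with no filter 5 members and 485 genes, against 0 and 3 by edgeR. For the mbl-1 effect in mec-3(unk206) against that in the wild type, DESeq2 called 5 members and 488 genes, against 0 and 3. DESeq2 called 20, 15 and 4 genes where edgeR called none, for mbl-1 loss in WT, in mec-7(u278) and for the difference between these effects, and the fit of 16 libraries called 2 genes for that difference. The cause was not tested.

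Leaving out 1 library at a time, with the lone library of a strain taken to vary like the others, gave 0 called members for mbl-1 loss in the wild type (median -0.33 to 0.20), 0 to 19 in mec-7(u278) (-2.83 to -0.37), 11 to 20 in mec-3(unk206) (0.13 to 0.27), 0 to 1 for mec-7(u278) against the wild type (-0.64 to -0.30), 31 to 44 for mec-3(u184) against mec-3(unk206) (0.73 to 0.86), 2 to 9 for mec-3(syb8382) against mec-3(unk206) (-0.34 to 0.006) and 40 to 49 for mec-3(syb8382) against mec-3(u184) (-1.33 to -1.03). For the differences of the mbl-1 effect the ranges were 0 for mec-7(u278) (-2.72 to -0.25) and 0 to 3 for mec-3(unk206) (-0.033 to 0.48). Genes called ran from 0 to 349, 0 to 193, 2085 to 5737, 1097 to 2319, 3832 to 6951 and 0 to 1353 for mbl-1 loss in mec-7(u278), mec-7(u278) against the wild type, the 3 mec-3 pairs in the order above and the mec-3(unk206) difference.

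Numbers 1 and 2 in the library names were not treated as pairs in the main fits. The correlation of same-numbered deviations ran from -0.52 to 0.38, which cannot settle whether same-numbered libraries were collected together. With the library number as a replicate block, 12 members and 2989 genes were called for mec-3(syb8382) against mec-3(unk206), against 6 and 2053. No other count of called members moved by over 1.5 times. For mbl-1 loss in mec-7(u278), 15 of 65 members had an unadjusted p under 0.05 by edgeR with the block, against 1 without it. The share of all genes at this p was not counted with the block, so this rise cannot be read as particular to the members. With the block no member and no gene was called. Of the values of named members under the alternatives, 606 kept their direction and their side of the threshold, 62 were no longer past it and 7 newly past it. The 3 that changed sign were of ptc-1 for mec-3(u184) against mec-3(unk206), which did not pass the test and lay at -0.0018 in the fit of 8 libraries and at -0.0857 to 0.0945 without 1 library. These values cover only members whose fold change is printed, and in mbl-1 loss in the wild type, where no member passed, 19 of 64 members had a fitted change below 0 without the first WT library, against 37 with all libraries.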
